A study of Mus musculus with 24 samples.

Results

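Peroxisome biogenesis, membrane and matrix proteins were followed in mouse liver through 42 genes, a list of symbols drawn up with earlier results of these data known. No measured value enters the rule for its members. Each gene stood for its annotated probe set with the highest mean over 24 arrays. All 42 had such a probe set, out of 18194 genes measured, and 26 of them had more than 1. They comprised 13 peroxins, 9 membrane proteins, and 20 matrix and lipid enzymes. The livers came from male B6C3F1 mice, a hybrid strain, aged 7 to 10 weeks on arrival. One set was dosed with the phthalate plasticiser DEHP (diethylhexylphthalate, 1150 mg/kg/day) and the other with corn oil, the vehicle, by oral gavage of 10 ml/kg every 24 h for 3 days. The 8 groups were DEHP and corn oil at 2, 8, 24 and 72 h, with 3 arrays each. The labels give the DEHP dose per kg at 2, 8 and 24 h and per kg and day at 72 h. If the times count from the first dose, livers at 2 and 8 h had fewer doses than those at 72 h. Differences between times and differences in the number of doses then cannot be told apart. The design text names 6 mice, and the sources used here do not say what that number covers or whether a group's arrays stand for different animals. The p-values therefore measure only the spread between these samples, which may be technical.

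Peroxisomes are small organelles that shorten very long and branched fatty acids, oxidise amino and hydroxy acids, begin the synthesis of ether lipids, and break down the hydrogen peroxide that their oxidases release. Their proteins are made in the cytosol. Peroxins place the membrane proteins, carry folded enzymes into the matrix, and drive growth and division of the organelle. In rodent liver the nuclear receptor PPAR alpha, bound to DNA with RXR at direct repeats of a hexamer, is known to switch on peroxisomal fatty acid oxidation in response to fibrates and phthalates, and hepatocytes then gain peroxisomes. Hepatocytes are the liver cells richest in them.

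The arrays were similar overall. Median log2 signals were 6.46 to 6.55. The correlation over all probe sets within a group was 0.989 to 0.996. The 7 hepatocyte markers lay at the 97.8th percentile of mean signal or above. Corn oil 8 h replicate 2 stood apart, with a difference between the 3' and 5' Actb probe sets, a sign of RNA quality, of 1.46 against at most 0.816 on the other arrays, and a mean endothelial marker signal of 7.51 against 8.38 and 8.66 on the other corn oil 8 h arrays. Corn oil 72 h replicate 1 had raised neutrophil markers (mean 7.38, against 5.68 and 5.83 on the other corn oil 72 h arrays). Exocrine pancreas markers reached 10.9 on DEHP 2 h replicate 1 and 8.93 on DEHP 72 h replicate 1. They reached 9.76 on corn oil 72 h replicate 1, 9.26 on corn oil 2 h replicate 2 and 8.38 on corn oil 2 h replicate 1. Marker lists whose array means did not overlap between DEHP and corn oil were, at 2 h, the 5 stellate cell markers (8.163 to 8.601 in DEHP livers, 8.663 to 8.76 in corn oil livers, 0 of 5 past the test and 2 at an unadjusted p under 0.05) and the 3 neutrophil markers (6.11 to 6.80 in DEHP livers, 5.99 to 6.03 in corn oil livers, 0 of 3 past the test and 0 at an unadjusted p under 0.05). At 8 h they were the exocrine pancreas markers (6.59 to 6.71 in DEHP livers, 6.77 to 7.74 in corn oil livers) and the hepatocyte markers (13.713 to 13.744 in DEHP livers, 13.771 to 13.784 in corn oil livers). At 24 h they were the same lists (pancreas 6.62 to 6.63 in DEHP livers and 6.67 to 6.82 in corn oil livers, hepatocytes 13.707 to 13.758 in DEHP livers and 13.805 to 13.875 in corn oil livers), and 0 genes of either list passed the test at 8 or 24 h (1 hepatocyte marker at 24 h had an unadjusted p under 0.05). The part of these markers in the results was not tested.

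At 2 h of DEHP, 4 of the 42 genes rose and 0 fell (adjusted p under 0.05, limma with Benjamini-Hochberg adjustment over 18194 genes). The 4 were Pex11a, Pxmp4, Eci2 and Mlycd, which is 9.52% of the list, beside 0.83% of all genes called in either direction and 0.616% called higher and 0.214% lower. At an unadjusted p under 0.05, 10 were higher and 3 lower (31% of the list, beside 8.43% of all genes). At 8 h, 6 genes rose (Pex11a, Pex19, Pex5, Abcd3, Hacl1 and Lonp2) and 3 fell (Abcd4, Pipox and Pecr). That is 21.4% of the list, beside 4.13% of all genes, of which 1.28% were higher and 2.86% lower. With an unadjusted p under 0.05, 11 were higher and 7 lower (42.9% of the list, beside 15.7% of all genes). At 24 h only Eci2 rose and 0 fell (2.38%, beside 0.297% of all genes, 0.253% higher and 0.044% lower), with 7 higher and 1 lower at an unadjusted p under 0.05 (19% of the list, beside 8.13% of all genes). At 72 h again only Eci2 rose and 0 fell (2.38%, beside 4.18% of all genes, 1.13% higher and 3.05% lower), with 5 higher and 3 lower at an unadjusted p under 0.05 (19% of the list, beside 21.6% of all genes). At 72 h neither share, with both directions counted together, stood above that of all genes. The 1 call was a rise, beside 1.13% of all genes called higher. In all, 12 genes passed the test at 1 or more times, each of them at 2 or 8 h, and 30 passed it at none.

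The median of the list stayed close to its corn oil level at each time. The median difference, DEHP minus corn oil on the log2 scale, was 0.001 at 2 h, 0.0503 at 8 h, 0.0333 at 24 h and -0.0007 at 72 h, and the medians over all genes were -0.0197, -0.0244, -0.0035 and -0.0334 at the same times. Differences of under 0.2 in size were seen for 28 genes at 2 h, 23 at 8 h, 32 at 24 h and 29 at 72 h. All 3 DEHP arrays lay on the same side of all 3 corn oil arrays for 13 genes at 2 h (31% of the list, beside 11.4% of all genes), 9 of them higher and 4 lower (4.67% and 6.72% of all genes). At 8 h this held for 15 genes (35.7%, beside 18.6%), 10 higher and 5 lower (5.44% and 13.1% of all genes). At 24 h it held for 10 genes (23.8%, beside 13.8%), 9 higher and 1 lower (6.38% and 7.47% of all genes). At 72 h it held for 8 genes (19%, beside 28.2%), 6 higher and 2 lower (10.1% and 18.1% of all genes). Over the 4 times, 9 genes had a positive difference at every time and 7 a negative difference at every time. All genes were not counted in this way. The test of an effect at any time called 10 of the 42, beside 6.46% of all genes.

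**Figure D1:**
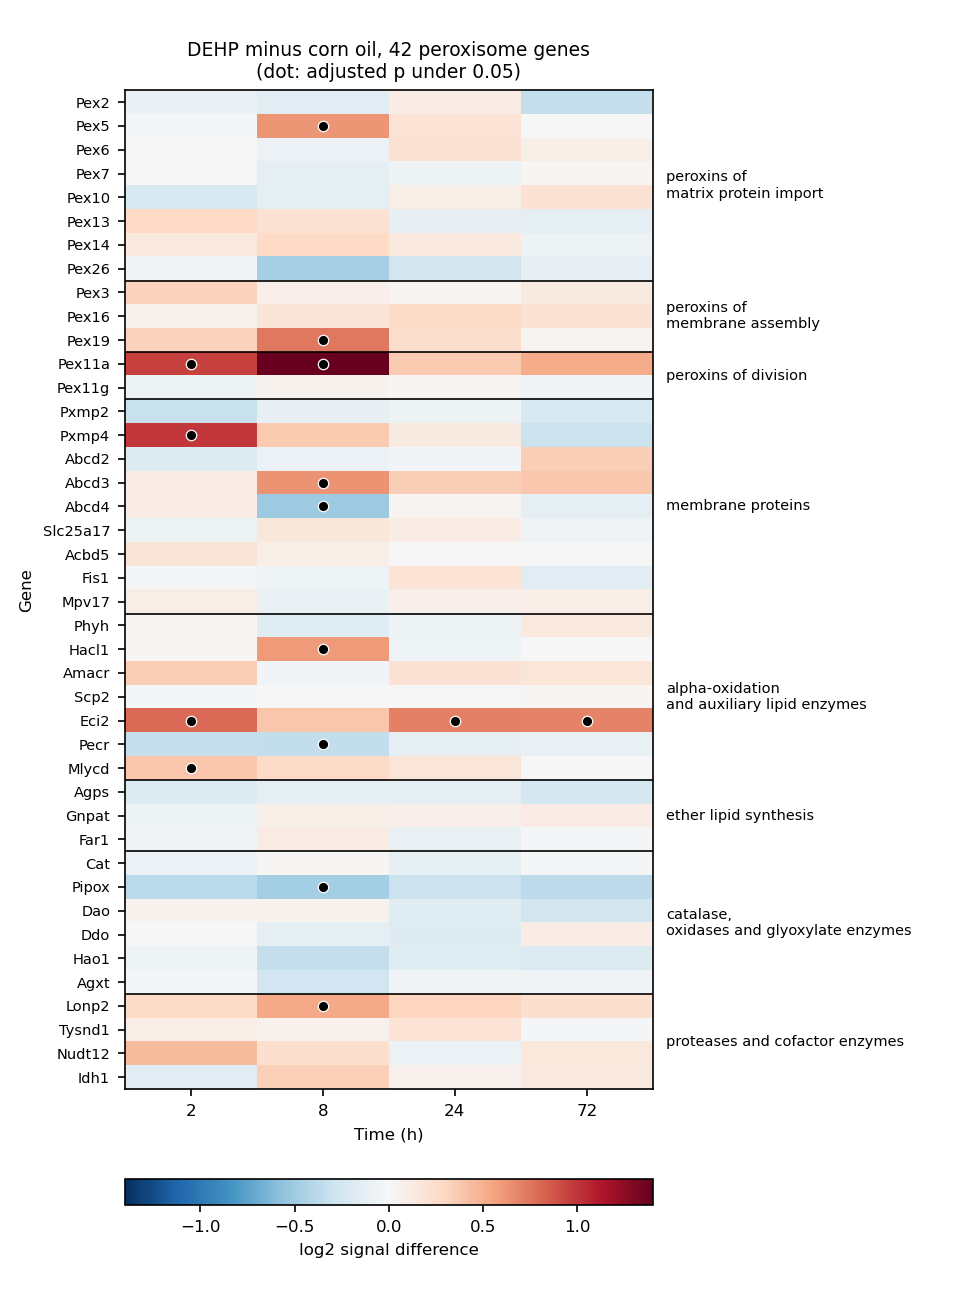
Difference in log2 signal between DEHP and corn oil (colour) for 42 peroxisome genes (rows, grouped by role) at 2, 8, 24 and 72 h (columns), with dots where the adjusted p was under 0.05. The 15 dots belong to 12 genes, 13 of them lie at 2 and 8 h, and Eci2 holds the only dots at 24 and 72 h.

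The stretches of DNA just before the genes that rose at 2 h are shown here because these 4 passed the test at the earliest time, and Cat, the catalase gene, is set beside them as a textbook peroxisomal marker that did not pass the test. Each line gives the 250 bases before an annotated start of transcription, 5' to 3' along the gene's strand, from RefSeq (GRCm38.p6). Capitals mark a word that matches the direct repeat DR1 (AGGTCA, any 1 base, AGGTCA) at all but 3 or fewer of its 12 fixed letters on either strand.
Pex11a, chr7:79743132-79743381, minus strand: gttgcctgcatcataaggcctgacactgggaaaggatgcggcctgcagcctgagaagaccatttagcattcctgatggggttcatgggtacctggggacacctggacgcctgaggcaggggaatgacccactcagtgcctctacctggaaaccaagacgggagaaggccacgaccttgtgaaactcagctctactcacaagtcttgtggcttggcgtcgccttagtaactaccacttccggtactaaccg
Pxmp4, chr2:154603674-154603923, minus strand: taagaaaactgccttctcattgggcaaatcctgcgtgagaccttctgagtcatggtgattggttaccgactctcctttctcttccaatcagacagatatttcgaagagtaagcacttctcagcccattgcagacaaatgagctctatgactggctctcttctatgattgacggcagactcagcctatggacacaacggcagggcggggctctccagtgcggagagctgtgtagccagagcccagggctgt
Eci2, chr13:34994145-34994394, minus strand: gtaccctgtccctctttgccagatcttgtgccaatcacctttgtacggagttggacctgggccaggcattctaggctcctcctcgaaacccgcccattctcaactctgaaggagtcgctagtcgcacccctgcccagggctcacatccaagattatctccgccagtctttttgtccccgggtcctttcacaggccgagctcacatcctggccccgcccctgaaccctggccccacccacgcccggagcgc
Mlycd, chr8:119394644-119394893, plus strand: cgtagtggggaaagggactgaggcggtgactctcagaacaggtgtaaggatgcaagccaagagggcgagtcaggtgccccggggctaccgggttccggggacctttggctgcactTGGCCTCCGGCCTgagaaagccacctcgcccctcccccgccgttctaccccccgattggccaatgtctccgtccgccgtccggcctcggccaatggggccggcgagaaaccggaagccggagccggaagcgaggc
Cat, chr2:103485154-103485403, minus strand: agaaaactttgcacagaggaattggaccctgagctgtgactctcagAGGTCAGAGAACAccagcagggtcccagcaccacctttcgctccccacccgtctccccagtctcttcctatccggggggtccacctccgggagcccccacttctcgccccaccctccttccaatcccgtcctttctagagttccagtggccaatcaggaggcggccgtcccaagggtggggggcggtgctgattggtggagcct

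The Cat window held AGGTCAGAGAACA, 204 bases before the start, with 2 mismatches, and the Mlycd window held a word on the other strand with 3. The Pex11a, Pxmp4 and Eci2 windows held no word within 3 mismatches. RefSeq windows were at hand for 35 of the 42 genes, 46 windows in all because some genes have several starts. An exact DR1 was in 0 of these 46 and in 0.0335% of all 32851 windows of the same length, and a word within 2 mismatches was in 1 (Cat) and in 3.24% of all windows. A word within 3 mismatches was in 7 of the 46 and in 21.3% of all windows. The hexamer AGGTCA, or TGACCT on the other strand, which overlaps the DR1 word in Cat, was in 5 member windows (10.9%) and in 14% of all windows. A match describes letters only, and sites further from the start were not searched.

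Peroxins of division held the largest change of the list. Pex11a codes for a membrane peroxin that elongates peroxisomes before they divide. Its log2 signal at 2 h was 11.32, 11.36 and 11.22 in DEHP livers, against 10.13, 10.42 and 10.47 in corn oil livers. At 8 h it was 12.06, 12.32 and 12.23 in DEHP livers, against 10.64, 10.87 and 10.91 in corn oil livers. The groups did not overlap at either time. The difference was 0.96 ± 0.17 (SE, n = 3 arrays in each group, 1.94-fold, adjusted p = 0.00475) at 2 h and 1.399 ± 0.172 (2.64-fold, adjusted p = 2.64e-05) at 8 h. In bulk liver, a change in RNA per cell and a change in the share of cells that hold the RNA cannot be told apart.

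At 24 h Pex11a had 10.04, 10.83 and 10.69 in DEHP livers, against 10.36, 9.97 and 10.11 in corn oil livers, so that the lowest DEHP array lay inside the corn oil range. At 72 h it had 10.86, 10.63 and 10.44 in DEHP livers, against 9.76, 10.28 and 10.34 in corn oil livers, with no overlap. These differences did not pass the test (0.37 ± 0.17, adjusted p = 0.604, at 24 h and 0.52 ± 0.17, adjusted p = 0.0869, at 72 h). A second Pex11a probe set differed by 1.36 at 2 h and 1.70 at 8 h (adjusted p = 1.98e-05 and 3.3e-07 over all 45101 probe sets). It differed by 0.69 at 24 h (adjusted p = 0.0617) and by 0.66 at 72 h (0.0216). Pex11g, the other division peroxin measured, had differences between -0.07 and 0.05 at the 4 times by the probe set used. A second Pex11g probe set ranged from -0.26 to 0.07 and another from -0.40 to 0.17. Both were lowest at 8 h (adjusted p = 0.271 and 0.149 over all probe sets).

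Peroxins of membrane assembly had positive differences at all 4 times by the probe sets used, but only 1 value passed the test. Pex19, the cytosolic receptor that brings new membrane proteins to the organelle, had 11.146, 11.041 and 10.999 in DEHP livers at 8 h, against 10.35, 10.17 and 10.45 in corn oil livers. All 3 DEHP arrays lay above the corn oil arrays. The difference was 0.74 ± 0.11 (1.67-fold, adjusted p = 0.00015). A second Pex19 probe set differed by 0.97 at 8 h (adjusted p = 0.000403 over all probe sets) and another by 0.40 (adjusted p = 0.0896). At the other times Pex19 differed by 0.32 ± 0.11 (2 h, adjusted p = 0.252), 0.25 ± 0.11 (24 h, 0.55) and 0.04 ± 0.11 (72 h, 0.858). At 2, 24 and 72 h the second probe set differed by 0.304, 0.299 and -0.099, and the last one by 0.039, -0.169 and -0.123. Pex3, the membrane anchor for Pex19, differed by 0.03 to 0.32, and Pex16, which works with Pex3 in membrane assembly, by 0.05 to 0.27, none past the test. A second Pex3 probe set ranged from 0.01 to 0.22 and a second Pex16 probe set from -0.03 to 0.08.

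Of the 8 peroxins of matrix protein import, only Pex5 passed the test, at 8 h. Pex5 is the receptor for enzymes with the common C-terminal peroxisomal signal. It had 10.01, 9.66 and 9.94 in DEHP livers, against 9.39, 8.78 and 9.58 in corn oil livers, and the 8.78 came from corn oil 8 h replicate 2, the array with the high Actb 3' to 5' difference. The difference was 0.62 ± 0.14 (1.54-fold, adjusted p = 0.0126). It was 0.39 without that array (adjusted p = 0.0993), 0.55 without DEHP replicate 1 (0.0769) and 0.59 without DEHP replicate 3 (0.0693), against adjusted p-values of 0.00262 to 0.0171 without each of the other 3 arrays. With the Actb 3' to 5' difference as a covariate it was 0.34 (adjusted p = 0.222). The second Pex5 probe set differed by 0.26 (adjusted p = 0.197 over all probe sets).

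The other 7 import peroxins did not pass the test at any time. The receptor Pex7, for enzymes with the N-terminal signal, differed by -0.13 to 0.03. Of the docking pair, Pex13 had differences between -0.14 and 0.28 and Pex14 between -0.07 and 0.28, the 0.28 of Pex14 at 8 h with an adjusted p of 0.0925. A second Pex13 probe set differed by 0.62 at 8 h (adjusted p = 0.0197 over all probe sets), while the one used here differed by 0.20 (adjusted p = 0.426). The ubiquitin ligase subunits Pex2 and Pex10 ranged from -0.33 to 0.10 and from -0.21 to 0.20. The ATPase Pex6, which recycles Pex5, ranged from -0.08 to 0.21, and Pex26, its membrane anchor, from -0.47 to -0.04, the lowest value at 8 h (adjusted p = 0.223).

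**Figure D2:**
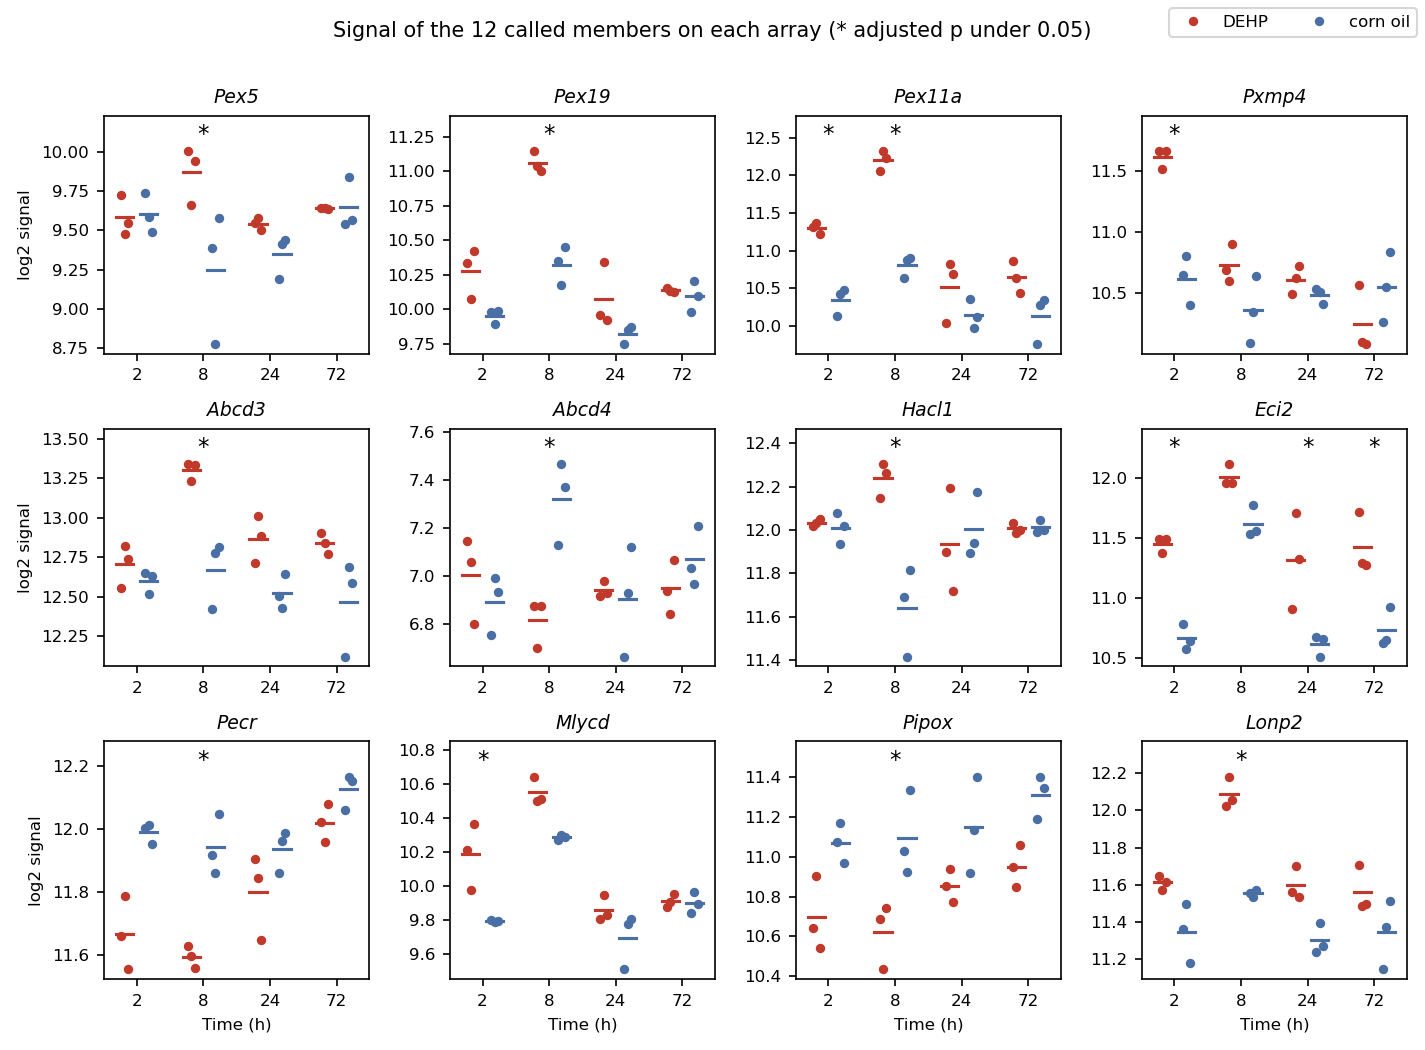
Log2 signal of the 12 genes that passed the test at 1 or more times on each array (points, DEHP in red and corn oil in blue, 3 arrays per group), with group means as bars, at 2, 8, 24 and 72 h. Asterisks mark an adjusted p under 0.05, and at every marked time the 3 DEHP points lie wholly above or below the 3 corn oil points.

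Among the 9 membrane proteins, Pxmp4 rose at 2 h, Abcd3 rose at 8 h and Abcd4 fell at 8 h. Pxmp4, a peroxisomal membrane protein whose function is not well known, had 11.66, 11.51 and 11.66 in DEHP livers at 2 h, against 10.65, 10.81 and 10.41 in corn oil livers. The groups were well apart, with a difference of 0.99 ± 0.15 (1.99-fold, adjusted p = 0.000649). At 8 h it had 10.69, 10.60 and 10.90 in DEHP livers, against 10.10, 10.35 and 10.64 in corn oil livers, and at 72 h it had 10.57, 10.10 and 10.09 in DEHP livers, against 10.27, 10.56 and 10.84 in corn oil livers. The groups overlapped at both of these times, with differences of 0.37 ± 0.15 (adjusted p = 0.204) at 8 h and -0.30 ± 0.15 (adjusted p = 0.244) at 72 h. At 24 h the difference was 0.13 ± 0.15 (adjusted p = 0.859). A second Pxmp4 probe set differed by 1.32 at 2 h, 0.58 at 8 h, 0.06 at 24 h and -0.26 at 72 h.

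Abcd3 codes for a transporter that carries long and branched acyl-CoAs into the organelle. At 8 h it had 13.34, 13.24 and 13.34 in DEHP livers, against 12.42, 12.77 and 12.81 in corn oil livers, with no overlap. The difference was 0.63 ± 0.12 (1.55-fold, adjusted p = 0.00384), and 0.34 ± 0.12 at 24 h (adjusted p = 0.476) and 0.37 ± 0.12 at 72 h (adjusted p = 0.0869) did not pass the test. Abcd4, of the same transporter family but placed in lysosomes in human cells, had 6.87, 6.70 and 6.87 in DEHP livers at 8 h, against 7.13, 7.47 and 7.37 in corn oil livers. All 3 DEHP arrays lay below the corn oil arrays, with a difference of -0.51 ± 0.12 (0.704-fold, adjusted p = 0.0121). Without corn oil replicate 2 the Abcd4 difference was -0.43 (adjusted p = 0.0833) and without DEHP replicate 2 it was -0.45 (0.0516), against adjusted p-values of 0.00773 to 0.0473 without each of the other 4 arrays. With the Actb covariate it was -0.44 (adjusted p = 0.121). The Abcd4 probe set used lay at the 44th percentile of mean signal. A second one differed by -0.145 at 8 h (adjusted p = 0.719 over all probe sets), and the call was lost with the mean of both.

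The other 6 membrane proteins did not pass the test. Abcd2, a transporter of very long acyl-CoAs, ranged from -0.18 to 0.35 over the times, and Pxmp2, a pore of the peroxisomal membrane, from -0.31 to -0.07. Other Abcd2 probe sets ranged from -0.65 to 0.60, from -0.64 to 0.43 and from 0.01 to 0.30, none past the test over all probe sets. Slc25a17, a carrier of cofactors, lay between -0.07 and 0.16, and Acbd5, which tethers peroxisomes to the endoplasmic reticulum, between 0.00 and 0.18. Fis1, a fission factor shared with mitochondria, ranged from -0.16 to 0.19, and Mpv17, known as a mitochondrial inner membrane protein, from -0.09 to 0.09.

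In the group of alpha-oxidation and auxiliary lipid enzymes, 4 of 7 genes passed the test at 1 or more times. Eci2, an isomerase that prepares unsaturated fatty acids for oxidation, was the only gene of the list to rise at 3 times by the probe sets used. With adjustment over all probe sets, the second Pex11a probe set passed at 2, 8 and 72 h, and Eci2 did not pass at 24 h (adjusted p = 0.0616). At 2 h Eci2 had 11.50, 11.38 and 11.49 in DEHP livers, against 10.78, 10.58 and 10.64 in corn oil livers. At 24 h it had 10.91, 11.71 and 11.33 in DEHP livers, against 10.68, 10.51 and 10.66 in corn oil livers. At 72 h it had 11.72, 11.29 and 11.28 in DEHP livers, against 10.63, 10.66 and 10.93 in corn oil livers. At each of these times every DEHP array lay above every corn oil array, with differences of 0.79 ± 0.15 (1.73-fold, adjusted p = 0.00655), 0.70 ± 0.15 (1.62-fold, adjusted p = 0.0325) and 0.69 ± 0.15 (1.61-fold, adjusted p = 0.01). At 8 h, with 11.96, 12.12 and 11.96 in DEHP livers against 11.53, 11.78 and 11.56 in corn oil livers, the groups were also apart and the difference was 0.39 ± 0.15 (adjusted p = 0.156).

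The 2 h call of Eci2 held without each of the 6 arrays, and the later calls did not. At 24 h the difference was 0.50 without DEHP replicate 2 (adjusted p = 0.416), 0.69 without DEHP replicate 3 (0.143), and 0.73, 0.65 and 0.72 without corn oil replicates 1, 2 and 3 (0.104, 0.0938 and 0.111), and it passed only without DEHP replicate 1 (0.90, 0.00117). At 72 h it was 0.55 without DEHP replicate 1 (adjusted p = 0.0523) and 0.65 without corn oil replicate 2 (0.0532), against adjusted p-values of 0.0124 to 0.0271 without each of the other 4 arrays. At 72 h, 3 of 6 macrophage markers were lower and 0 higher, with array means of 7.96 to 8.19 in DEHP livers and 8.36 to 8.73 in corn oil livers. Of 5 endothelial markers 0 passed the test (2 at an unadjusted p under 0.05), all 5 differences were negative (median -0.39), and array means were 8.14 to 8.34 in DEHP livers and 8.53 to 8.85 in corn oil livers. Of 7 hepatocyte markers, 1 was lower and 0 higher, with array means of 13.674 to 13.716 in DEHP livers and 13.805 to 13.851 in corn oil livers. The part of these markers in the result was not tested. Without corn oil 72 h replicate 1, the array with the neutrophil markers, the Eci2 difference was 0.64 (adjusted p = 0.0271).

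Hacl1, the lyase of alpha-oxidation, passed the test only at 8 h. It had 12.15, 12.30 and 12.26 in DEHP livers, against 11.69, 11.42 and 11.82 in corn oil livers. The groups did not overlap, and the corn oil mean at 8 h was the lowest of the 8 groups. The difference was 0.60 ± 0.11 (1.51-fold, adjusted p = 0.00169). The lowest corn oil value came from replicate 2, the array that stood apart, and without it the difference was 0.484 (adjusted p = 0.0169, against 0.00124 to 0.0104 without each of the other 5 arrays). With the Actb covariate it was 0.4801 (adjusted p = 0.0353). At 2, 24 and 72 h it was 0.02, -0.07 and -0.01. Mlycd, malonyl-CoA decarboxylase, had 10.21, 9.98 and 10.37 in DEHP livers at 2 h, against 9.80, 9.79 and 9.79 in corn oil livers. The 3 corn oil arrays were nearly alike and the DEHP arrays spread above them, with a difference of 0.39 ± 0.09 (1.31-fold, adjusted p = 0.0387). The Mlycd call held in 1 of 6 fits that left out a 2 h array, the 1 without DEHP replicate 2 (0.50, adjusted p = 0.00511). In the other 5 the difference was 0.30 to 0.40 (adjusted p = 0.111 to 0.279). The call was also lost without corn oil 72 h replicate 3, DEHP 72 h replicate 2 or DEHP 72 h replicate 3, which leave the difference as it is.

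Pecr, a reductase of the peroxisomal chain elongation of fatty acids, fell at 8 h. It had 11.63, 11.59 and 11.56 in DEHP livers, against 11.92, 11.86 and 12.05 in corn oil livers, with no overlap and a difference of -0.35 ± 0.08 (0.786-fold, adjusted p = 0.0133). Without corn oil replicate 3 it was -0.30 (adjusted p = 0.075) and without DEHP replicate 3 -0.33 (0.0698), against adjusted p-values of 0.0218 to 0.0355 without each of the other 4 arrays. At 2 h, with 11.66, 11.79 and 11.55 in DEHP livers against 12.004, 12.013 and 11.950 in corn oil livers, the groups were also apart (-0.32 ± 0.08, adjusted p = 0.0664). A second Pecr probe set, with a low mean signal of 5.89, differed by -0.23 at 8 h (adjusted p = 0.642 over all probe sets). The 8 h call was lost with the mean of both. The other 3 enzymes did not pass the test at any time. Phyh, which opens alpha-oxidation of phytanic acid, ranged from -0.17 to 0.13, and Scp2, a lipid carrier and thiolase, from -0.02 to 0.02. Amacr, a racemase for branched acyl-CoAs, ranged from -0.04 to 0.35, the highest value at 2 h (adjusted p = 0.179).

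Catalase, the oxidases and the glyoxylate enzymes showed 1 call, Pipox at 8 h. Cat, which breaks down hydrogen peroxide, had 12.97, 13.05 and 13.08 in DEHP livers at 72 h, against 13.01, 12.99 and 13.16 in corn oil livers. These ranges overlapped, as they did at 2 and 8 h, and at 24 h the DEHP arrays lay below the corn oil arrays by a narrow margin. Its differences were -0.08 ± 0.10 at 2 h, 0.02 ± 0.10 at 8 h, -0.13 ± 0.10 at 24 h and -0.02 ± 0.10 at 72 h, and a second Cat probe set ranged from -0.16 to -0.04. Pipox, which oxidises pipecolic acid and sarcosine, had negative differences at all 4 times. At 8 h it had 10.69, 10.43 and 10.74 in DEHP livers, against 11.03, 10.92 and 11.34 in corn oil livers, with no overlap and a difference of -0.48 ± 0.12 (0.719-fold, adjusted p = 0.0297).

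The Pipox difference at 8 h was -0.36 without corn oil replicate 3 (adjusted p = 0.167), -0.51 without DEHP replicate 1 (0.0622) and -0.38 without DEHP replicate 2 (0.12), against adjusted p-values of 0.0275 to 0.0487 without each of the other 3 arrays. At 72 h Pipox had 10.95, 10.85 and 11.06 in DEHP livers, against 11.19, 11.40 and 11.34 in corn oil livers, again with no overlap (-0.36 ± 0.12, adjusted p = 0.0975). Hao1, the glycolate oxidase, and Agxt, which turns glyoxylate into glycine, had differences of -0.33 ± 0.10 (adjusted p = 0.0555) and -0.27 ± 0.10 (adjusted p = 0.164) at 8 h, and none past the test at another time. The D-amino acid oxidase Dao ranged from -0.25 to 0.05 and the D-aspartate oxidase Ddo from -0.18 to 0.10.

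The 3 enzymes that begin ether lipid synthesis did not pass the test at any time, and 0 had an unadjusted p under 0.05. Agps, the alkyl synthase, was -0.24 to -0.12, Gnpat, the acyltransferase, -0.07 to 0.12, and Far1, which supplies the fatty alcohol, -0.10 to 0.11. Other Agps probe sets ranged from -0.01 to 0.18 and from -0.02 to 0.10. The 5 probe sets of Far1 all had low signals, with means on the log2 scale of 3.63 to 5.27.

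Of the proteases and cofactor enzymes, Lonp2 rose at 8 h. Lonp2, the Lon protease of the matrix, had 12.02, 12.18 and 12.06 in DEHP livers, against 11.56, 11.53 and 11.57 in corn oil livers. Both groups were tight and did not overlap, and the difference was 0.54 ± 0.10 (1.45-fold, adjusted p = 0.00171). It was 0.27 ± 0.10 at 2 h, 0.30 ± 0.10 at 24 h and 0.22 ± 0.10 at 72 h, none past the test (adjusted p = 0.339, 0.361 and 0.188). Its other 3 probe sets differed by 0.27, 0.36 and 0.09 at 8 h, none past the test over all probe sets. Tysnd1, the protease that trims imported enzymes, lay between -0.03 and 0.19, and Nudt12, a pyrophosphatase for NADH, between -0.08 and 0.44 (adjusted p = 0.346 at 2 h). Idh1, the isocitrate dehydrogenase of cytosol and peroxisomes, differed by 0.33 ± 0.11 at 8 h (adjusted p = 0.103). A second Idh1 probe set differed by 0.44 at 8 h, with an adjusted p of 0.0188 over all probe sets.

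Of the 15 values that passed the test, 8 passed in all 6 fits that left out an array of the same time. They were Pex11a at 2 and 8 h, Pxmp4 and Eci2 at 2 h, and Pex19, Abcd3, Hacl1 and Lonp2 at 8 h. The other 7 were lost in 1 or more of these fits. Pancreas markers were raised at 2 h on DEHP replicate 1 and on corn oil replicates 1 and 2. Without DEHP 2 h replicate 1 and without corn oil 2 h replicate 2, the 2 h differences were 0.95 and 0.9993 for Pex11a, 0.97 and 1.08 for Pxmp4, and 0.77 and 0.74 for Eci2. Without corn oil 2 h replicate 1 they were 0.85 for Pex11a (adjusted p = 0.0486), 1.01 for Pxmp4 (0.00475) and 0.85 for Eci2 (0.0156). Without both 8 h arrays that carry the number 14 in their labels (DEHP replicate 2 and corn oil replicate 3), 6 genes stayed past the test at 8 h, the same 6 that rose. The falls of Abcd4 (-0.42, adjusted p = 0.125), Pecr (-0.30, adjusted p = 0.117) and Pipox (-0.26, adjusted p = 0.368) did not pass there. The sources used here do not say whether these arrays share more than the number. Counted over 9 of the 15 values whose gene has other probe sets, all 12 other values had the same sign, and 5 passed the test over all probe sets.

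**Figure D3:**
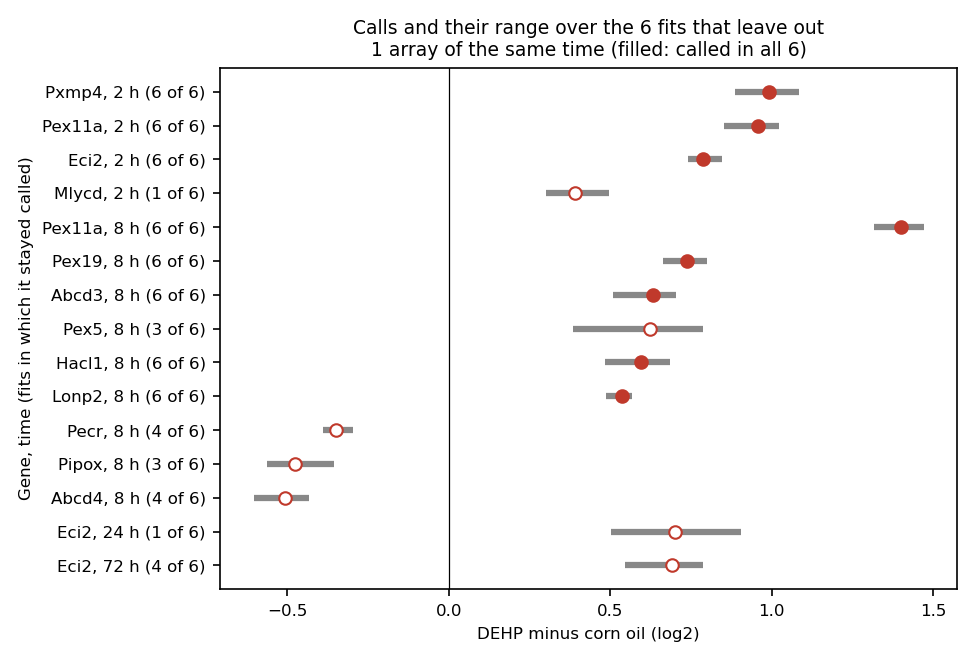
Differences in log2 signal (DEHP minus corn oil, points) that passed the test, with the range over the 6 fits that each left out an array of the same time (bars). Filled points stayed past the test in all 6 fits, open points in the number given at the left, and no bar crosses 0.

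Peroxins were set against membrane and matrix proteins. At 8 h, 3 of 13 peroxins rose and 0 fell (1 lower at an unadjusted p under 0.05), with a median difference of 0.07. Of the 29 membrane and matrix genes, 3 rose and 3 fell, with a median of 0.02. The rise of the peroxin Pex5 did not pass without corn oil 8 h replicate 2, and the 3 falls did not pass without both arrays numbered 14. The medians of the peroxins and of the other genes differed by 0.0527. Over fits that left out an array they differed by 0.026 (without corn oil 8 h replicate 2) to 0.1637 (without DEHP 8 h replicate 3). Another measure, the median of the peroxins minus the median of the other 29 genes on each array, each gene centred on its mean over all arrays, was 0.3242, 0.0932 and 0.0848 in DEHP livers at 8 h, against 0.0829, 0.0293 and 0.0158 in corn oil livers. The groups did not overlap, though their closest arrays were nearly level, and the highest value came from DEHP replicate 1. The difference of the means was 0.1247, and 0.0463 without DEHP replicate 1. The SD between single arrays of the same group was 0.0872, which is not the spread of a difference of means. At 2, 24 and 72 h the same difference was 0.0272, 0.0977 and 0.0084, and the groups overlapped. At 2 h, 1 of 13 peroxins rose and 0 fell (0 lower at an unadjusted p under 0.05), and 3 of 29 membrane and matrix genes rose and 0 fell (3 lower at an unadjusted p under 0.05). At 24 and 72 h, 0 of 13 peroxins passed the test (4 and 2 at an unadjusted p under 0.05), and Eci2 was the call among the 29. The classes were described and not tested against each other.

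**Figure D4:**
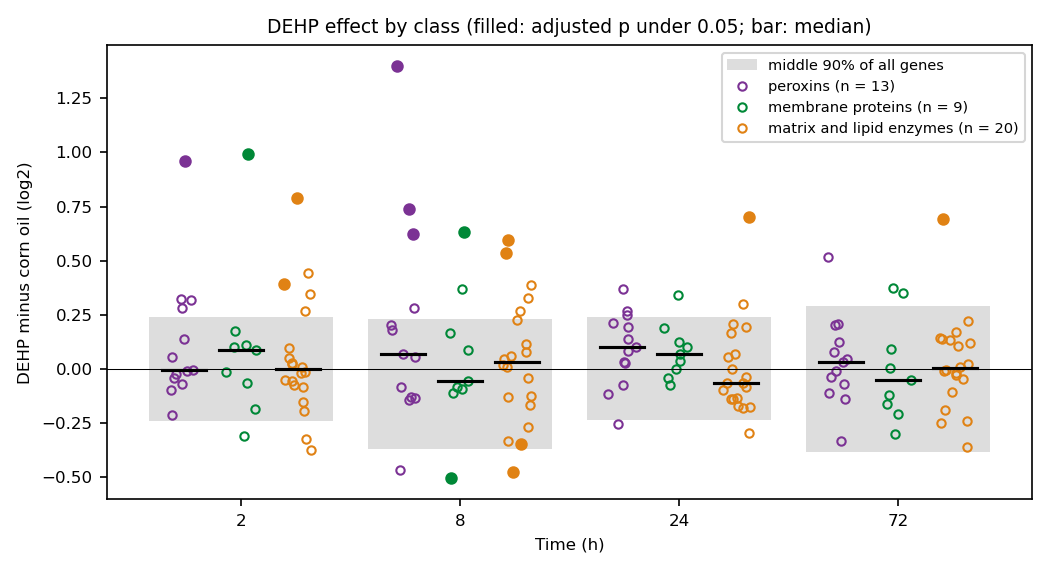
Difference in log2 signal (DEHP minus corn oil) of each gene at 2, 8, 24 and 72 h, by class (13 peroxins, 9 membrane proteins, 20 matrix and lipid enzymes), with class medians as bars and the middle 90% of all 18194 genes in grey. Filled points passed the test, and every class median lies between -0.07 and 0.10.

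Whether the DEHP effect differed between times was tested on the differences themselves. This test called 2 of the 42 genes, Pxmp4 (adjusted p = 0.00802) and Hacl1 (adjusted p = 0.0398), beside 2.08% of all genes. For Pxmp4 the effect at 72 h minus that at 2 h was -1.30 ± 0.21 (adjusted p = 0.00197, a comparison in which 2.34% of all genes passed), and its effects at 2, 8, 24 and 72 h were 0.99, 0.37, 0.13 and -0.30. For Hacl1 the effect at 24 h minus that at 8 h was -0.66 ± 0.15 (adjusted p = 0.0503, a comparison in which 0.467% of all genes passed). Pex19 (adjusted p = 0.0528) and Pex11a (adjusted p = 0.0601) did not pass, and the Pex11a effect at 24 h minus that at 8 h was -1.03 ± 0.24 (adjusted p = 0.06). Eci2 (adjusted p = 0.654) and Lonp2 (adjusted p = 0.493), like the rest of the list, did not pass. Pxmp4 stayed past the test in all 24 fits that left out an array. Hacl1 passed in 9 of these 24 and was lost in the 15 others, namely without any DEHP 8 h or DEHP 72 h array, DEHP 2 h replicates 1 and 3, DEHP 24 h replicate 1, corn oil 8 h replicates 1 and 2, corn oil 2 h replicates 1 and 3, or corn oil 72 h replicates 2 and 3. Without DEHP 24 h replicate 2, and likewise without corn oil 72 h replicate 1, Pex11a and Pex19 passed too, 4 genes in all.

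Corn oil livers themselves differed between times. The test called 7 of the 42 genes in corn oil, beside 3.55% of all genes: Eci2 (adjusted p = 0.000392), Mlycd (0.00171), Amacr (0.00289), Pex26 (0.0251), Pex19 (0.0282), Pex14 (0.029) and Pex16 (0.0321). In each of the 7 the corn oil mean was highest at 8 h. Over the whole list, the highest corn oil mean was at 8 h for 23 genes (54.8%, beside 31% of all genes), at 72 h for 11, at 2 h for 6 and at 24 h for 2. Eci2 averaged 11.46 ± 0.07 (SD, n = 3) at 2 h, 12.01 ± 0.09 at 8 h, 11.32 ± 0.40 at 24 h and 11.43 ± 0.25 at 72 h in DEHP livers. It averaged 10.67 ± 0.11 at 2 h, 11.62 ± 0.13 at 8 h, 10.62 ± 0.09 at 24 h and 10.74 ± 0.17 at 72 h in corn oil livers, with the highest mean of both treatments at 8 h. For Mlycd the corn oil means were 9.79, 10.28, 9.70 and 9.90 at the 4 times, and for Pex26 8.14, 9.08, 8.52 and 8.34. The labels do not give the hour of day of the doses or of the kill, so time after dosing and time of day cannot be told apart. Without corn oil 8 h replicate 2, the array that stood apart, 4 genes passed (Pex19, Amacr, Eci2 and Mlycd). The count was also 4 without corn oil 8 h replicate 1 or corn oil 24 h replicate 1 (Pex26 in place of Pex19), and 3 without corn oil 8 h replicate 3 (Amacr, Eci2 and Mlycd).

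**Figure D5:**
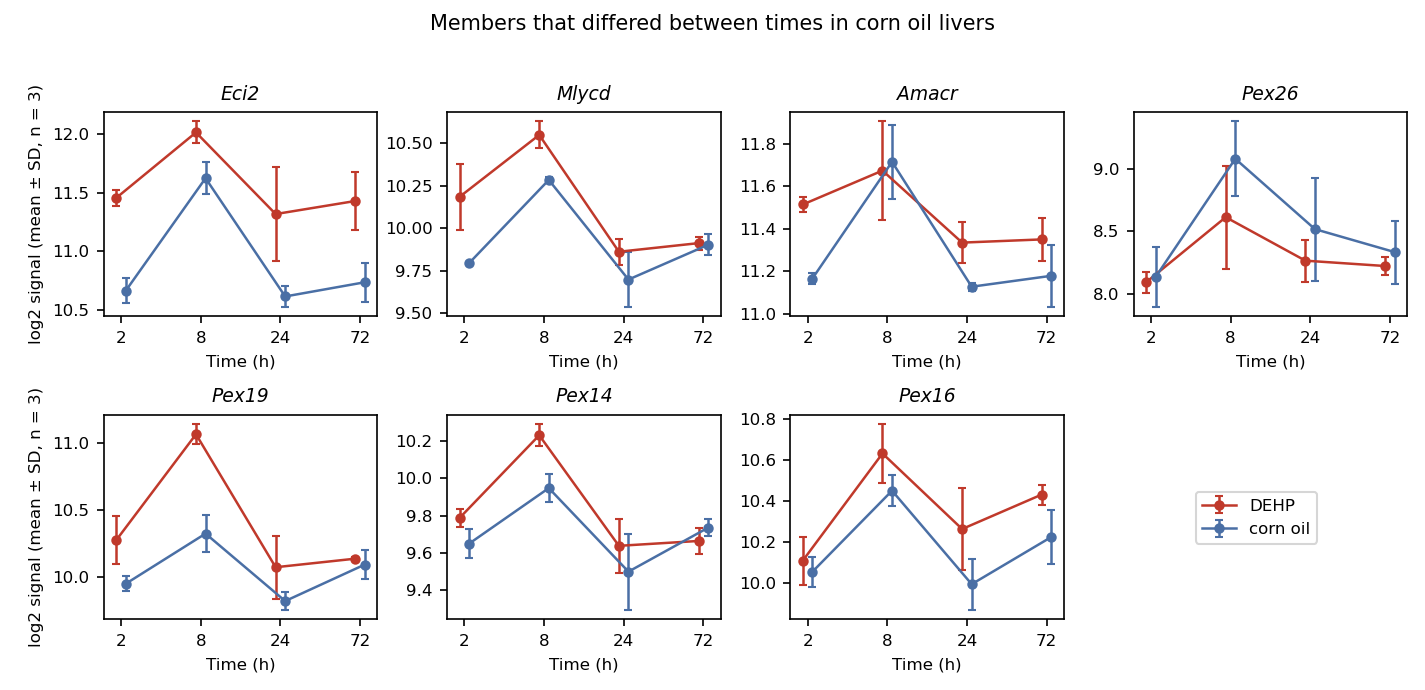
Mean log2 signal ± SD (n = 3 arrays) of the 7 genes that differed between times in corn oil livers, in DEHP livers (red) and corn oil livers (blue), at 2, 8, 24 and 72 h. Each of the 7 corn oil lines has its highest point at 8 h.

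Other genes of the organelle, taken from lists kept apart from the 42, moved in different numbers. Of 15 measured genes of the peroxisomal beta-oxidation core, 4 rose at 2 h, 7 at 8 h, 4 at 24 h and 6 at 72 h, and 0 fell at any time (0 were lower at an unadjusted p under 0.05). The rises were 26.7%, 46.7%, 26.7% and 40% of this list, beside 0.616%, 1.28%, 0.253% and 1.13% of all genes called higher. Ehhadh, the bifunctional enzyme of the pathway, rose at all 4 times, by 1.93 ± 0.21, 2.79 ± 0.21, 2.61 ± 0.21 and 3.02 ± 0.21. The thioesterase Acot3 rose by 1.498 ± 0.349 at 2 h and 3.33 ± 0.35 at 8 h, and Acot4, of the same family, by 0.92 ± 0.21 and 2.15 ± 0.21. The thiolase Acaa1b rose at 8, 24 and 72 h (1.33 ± 0.18 at 72 h). Of 16 other peroxisomal enzymes, 1, 3, 3 and 4 rose at 2, 8, 24 and 72 h, among them the fatty aldehyde dehydrogenase Aldh3a2 at 8, 24 and 72 h (1.21 ± 0.27, 1.404 ± 0.269 and 1.88 ± 0.27) and Hsdl2, a dehydrogenase-like protein, at every time (1.36 ± 0.14 at 8 h). The reductase Dhrs4 rose at 8, 24 and 72 h (0.74 ± 0.14 at 24 h), and the epoxide hydrolase Ephx2 at 72 h (0.52 ± 0.13). The 1 that fell, at 8 h, was Nudt7, a CoA pyrophosphatase (-0.43 ± 0.11), named after its value was seen. None of 5 division factors shared with mitochondria passed the test at any time (0, 0, 1 and 2 at an unadjusted p under 0.05). Of 6 genes of pexophagy and peroxisomal ubiquitin only the adaptor Sqstm1 rose past the test, at 8 h (0.44 ± 0.09). Of 5 genes of PPAR alpha and its partners only Rxra fell past it, at 8 h (-0.38 ± 0.09). These are single genes of short lists, at a time when 1.28% of all genes were called higher and 2.86% lower. In the first list 0, 4, 0 and 2 genes had an unadjusted p under 0.05 at the 4 times, and in the second 1, 2, 1 and 1. The largest difference of the second list, in Ppargc1a, was named after its value was seen. It was -1.56 ± 0.41 at 2 h (adjusted p = 0.0826), -0.99 at 8 h, -0.85 at 24 h and 0.69 at 72 h, none past the test. Genes of these lists without a probe set of their own are not analysed here.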

How the data were processed

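RNA was measured on 24 Affymetrix arrays, 3 for each of 8 groups. The deposited values are log2 signals per probe set, normalised by the authors with RMA, per the submitters' processing notes, and range from 2.84 to 14.55. The genome build was not given in the sources used here, and arrays carry no read depth: their number limits the precision. Of 45101 probe sets, 34958 had 1 gene symbol, 932 several and 9211 none. For each of 18194 genes the probe set with the highest mean over 24 arrays was kept. The range given for a gene is that of this probe set unless another is named, and other probe sets can differ in sign. limma 3.58.1 (R 4.3.3) fitted the 8 group means to all genes (16 residual degrees of freedom), without a covariate or a filter. DEHP was compared with corn oil at each time, and F tests covered an effect at any time, a difference of the effect between times, and times within corn oil. P-values were Benjamini-Hochberg adjusted over all genes (over all probe sets for other probe sets), with a threshold of 0.05. The steps were tested on simulated data with known changes. Arrays of the same time and replicate number did not deviate together from their group means (r from -0.351 to 0.144, 1 of 12 pairs over 0.1). With 3 arrays per group this cannot exclude a pairing or a batch, and the reported fit used no pairing. In the labels the first replicates carry the numbers 1 to 8 and the later ones numbers from 9 to 24. All members are described. From the other lists, called genes were named, at most 4 per list, by size of change. Nudt7 and Ppargc1a were named in addition, Ppargc1a without a call. The members and lists were chosen with earlier results of these data known. The alternatives were a replicate block, a block of first against later replicates, a percentile filter, the mean of a gene's probe sets, other variance estimates and array weights. Further ones were median centring, quantile normalisation, stricter thresholds and each time fitted alone. Fits also left out single arrays, both arrays numbered 14, or both arrays that stood apart. A fit with an Actb 3' to 5' covariate was added after the data were seen. Promoter windows came from RefSeq (GRCm38.p6).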

Additional observations from a re-analysis of the deposited data

Results flagged for a closer look

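The DEHP effect on Pxmp4, a peroxisomal membrane protein, differed between the 4 times by a test of the difference itself (adjusted p = 0.00802, limma). Its effect on the log2 scale was 0.99 at 2 h, 0.37 at 8 h, 0.13 at 24 h and -0.30 at 72 h.

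The DEHP effect on Hacl1, the lyase of alpha-oxidation, also differed between times (adjusted p = 0.0398, limma). It was 0.60 at 8 h and between -0.07 and 0.02 at the other times. At 8 h it had 12.15, 12.30 and 12.26 in DEHP livers, against 11.69, 11.42 and 11.82 in corn oil livers, and its corn oil means at 2, 24 and 72 h were 12.01, 12.003 and 12.01.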

How the results depend on the processing

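No DEHP effect that passed the test changed sign under any alternative. The count of genes past the test at 24 h, 1 (Eci2), was 0 with the replicate block, with array weights, at an adjusted p under 0.01, without both arrays numbered 14 in their labels, and in a fit of the 6 arrays of that time alone. At 72 h the count of 1 was 0 at an adjusted p under 0.01, 2 with the mean of all probe sets, 3 after quantile normalisation and 5 with array weights. At 8 h the count of 9 was 5 at an adjusted p under 0.01 and 5 with a change of at least 1.5-fold, and 6, with 0 lower, without both arrays numbered 14. The 2 genes whose effect differed between times became 4 among genes above the 40th percentile, 4 with the mean of all probe sets, 4 after quantile normalisation, 5 with array weights, and 1 each after median centring, at an adjusted p under 0.01 and with the Actb covariate. The 7 genes that differed between corn oil times became 3 at an adjusted p under 0.01, 3 without both arrays numbered 14 and 2 with the Actb covariate. Leaving out 1 array at a time gave counts of 3 to 5 at 2 h, 7 to 10 at 8 h, 0 to 1 at 24 h, 0 to 2 at 72 h, 9 to 12 at any time, 1 to 4 between times and 3 to 9 in corn oil, and a class difference of 0.026 to 0.1637. With the replicate block the counts at 2, 8 and 72 h were 4, 9 and 1, with 2 genes between times (Pex11a and Pxmp4) and 9 in corn oil. With first against later replicates as a block, Pex11a, Pxmp4 and Hacl1 differed between times. Hao1 at 8 h, Pecr at 2 h and Pex11a at 72 h missed the threshold in the reported fit and passed it in 8, 4 and 3 alternatives. The causes were not tested.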

Other observations

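The 8 h arrays DEHP replicate 2 and corn oil replicate 3 carry the same number in their labels. Over all probe sets their correlation was 0.9899, near the low end of the range found within groups (0.9892 to 0.996).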
